A study of Mus musculus with 2 samples.

Results

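The 10 genes described here are those of the NRF2 antioxidant pathway named by symbol: the transcription factor gene Nfe2l2, its repressor Keap1, and the antioxidant genes Hmox1, Nqo1, Gclc, Gclm, Srxn1, Slc7a11, Txnrd1 and Cat. All 10 were matched among 55536 annotated genes, and together they have 39 annotated transcripts. The RNA came from primary macrophages of the strain C57BL/6J that were derived in culture from bone marrow. The cells were pre-treated for 12 h with lipid A at 100 ng/ml, kept for 12 h without it, and stimulated again at 100 ng/ml for 50 min. Lipid A is the part of bacterial lipopolysaccharide that Toll-like receptor 4 binds. The labels name the sequenced fraction as nucleoplasmic and also as nuclear, and ribosomal RNA was depleted from its total RNA. The series has 1 group with 2 libraries, which the labels number as biological replicates 1 and 2 and tie to the same donor entry. The starting RNA was 500 ng for replicate 1 and 1 µg for replicate 2. No unstimulated cells and no cytoplasmic or whole-cell RNA were analysed here, so no value below measures a response to lipid A.

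NRF2, the protein made from Nfe2l2, is a leucine-zipper transcription factor that pairs with small MAF proteins and binds antioxidant response elements in DNA. In unstressed cells KEAP1 holds NRF2 and presents it to a CUL3 ubiquitin ligase for degradation. Oxidants and electrophiles modify cysteines of KEAP1, after which NRF2 accumulates and its targets for glutathione synthesis, thioredoxin recycling, heme breakdown and quinone reduction are transcribed. Much of this control acts on the NRF2 protein, which RNA does not measure. In macrophages the pathway is known for limiting oxidative damage and for restraining inflammatory gene expression.

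The gene-level table held 20612078 counts in replicate 1 and 22772081 in replicate 2. All 8 macrophage markers were detected, with summed levels of 2501 and 2794 TPM (a level that is divided by transcript length and scaled to a fixed total per library) in replicates 1 and 2, and Lyz2 was the highest. The summed TPM was 1.51 and 1.16 for 6 erythroid markers, 0.74 and 1.63 for 5 neutrophil markers, 0.30 and 0.26 for 4 B cell markers, 0.02 and 0.02 for 4 T cell markers, and 0.18 and 0.04 for 4 fibroblast markers. Hbb-bt, Hba-a1, Ly6g, Cd3e and Cd3g had 0 counts in both libraries. Small RNA genes took 73.9% and 71.5% of all TPM, so TPM of protein-coding genes is low against whole-cell tables and is used here only to compare genes with each other. With 1 library against 1, a difference between libraries could be tested only against counting error, and a p-value then compares these libraries and leaves out the spread between cultures. Replicate and RNA input cannot be told apart.

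Nfe2l2 had the highest level of the 10 genes and Nqo1 the lowest. Against 12140 protein-coding genes with a summed count of at least 10, whose median level was 3.585 TPM and whose 90 percentile was 28.71 TPM, 7 of the 10 genes lay above the median and Nfe2l2 and Txnrd1 also above the 90 percentile. In order of mean TPM, Nfe2l2, Txnrd1 and Hmox1 each stood apart from the next gene, with ranges over the libraries that did not overlap. Slc7a11, Srxn1, Cat and Keap1 followed with overlapping ranges, and Keap1 took position 7 in replicate 1 and position 4 in replicate 2. Gclm, Gclc and Nqo1 came last, again without overlap. Fewer cells that express a gene and less RNA in each cell cannot be told apart in such bulk levels.

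**Figure D1:**
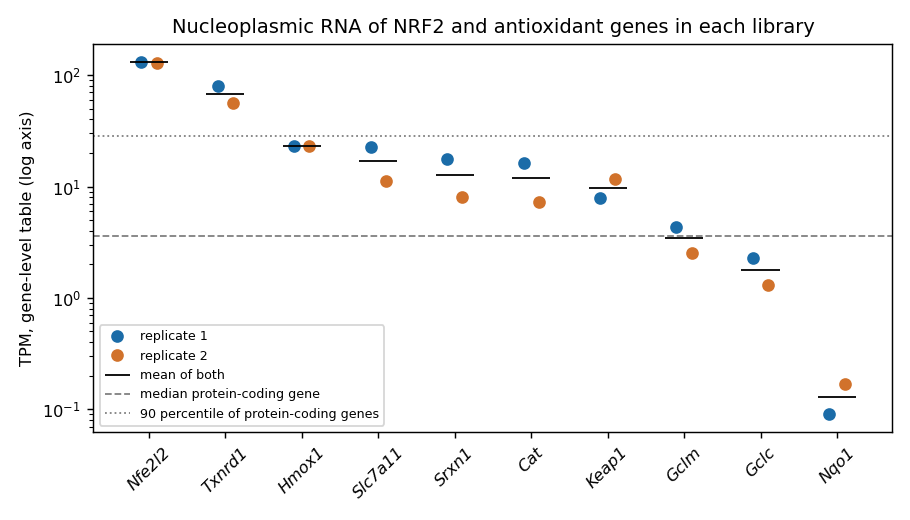
Level of each gene in TPM on a log axis, with 1 point for each library and a bar at the mean, and lines at the median (3.585 TPM) and 90 percentile (28.71 TPM) of 12140 protein-coding genes. Nfe2l2 and Txnrd1 lie above the upper line in both libraries, Gclc and Nqo1 lie below the lower line in both, and the points of Slc7a11, Srxn1 and Cat are more than 2-fold apart.

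Slc7a11, Srxn1 and Cat were more than 2-fold higher in replicate 1 than in replicate 2, and 7 of the 10 genes had lower counts in replicate 2 after scaling. Passing the test here means a Benjamini-Hochberg adjusted p under 0.05 in a two-sided exact binomial test over 16140 genes, together with a ratio of at least 2-fold. By that rule 3 of the 10 genes passed, all lower in replicate 2, while 1073 of all genes passed, which is 6.65%, and 325 passed with the lower value in replicate 2, which is 2.01%. Among the 8641 genes that reached 100 counts in each library, 37 passed as lower in replicate 2, or 0.428%. The median log2 ratio of replicate 2 over replicate 1 was -0.53 for the 10 genes and 0.01 for all genes tested. Of all genes tested, 49.5% had a ratio below 0.

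The count of 3 depends on how error is set. Without the 2-fold minimum, 8 of the 10 genes had an adjusted p under 0.05 in the exact binomial test, as did 38.8% of all genes. Among genes that reached 100 counts in each library, as 9 of the 10 did, that share was 55.2%. An edgeR exact test with a dispersion of 0.01 set in advance kept the same 3 genes, beside 4.59% of all genes. At a dispersion of 0.04 that test passed 0 of the 10 and 1.21% of all genes, with adjusted p-values of 0.339 for Slc7a11, 0.269 for Srxn1 and 0.224 for Cat. The dispersion that edgeR estimated from both libraries as replicates of 1 group was 0.0546, a coefficient of variation of 0.234. In the index-based transcript table summed to genes, 1 of the 10 passed (Srxn1) beside 9.26% of all genes, and 55.6% of all calls there were lower in replicate 2, against 30.3% in the gene-level table.

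**Figure D2:**
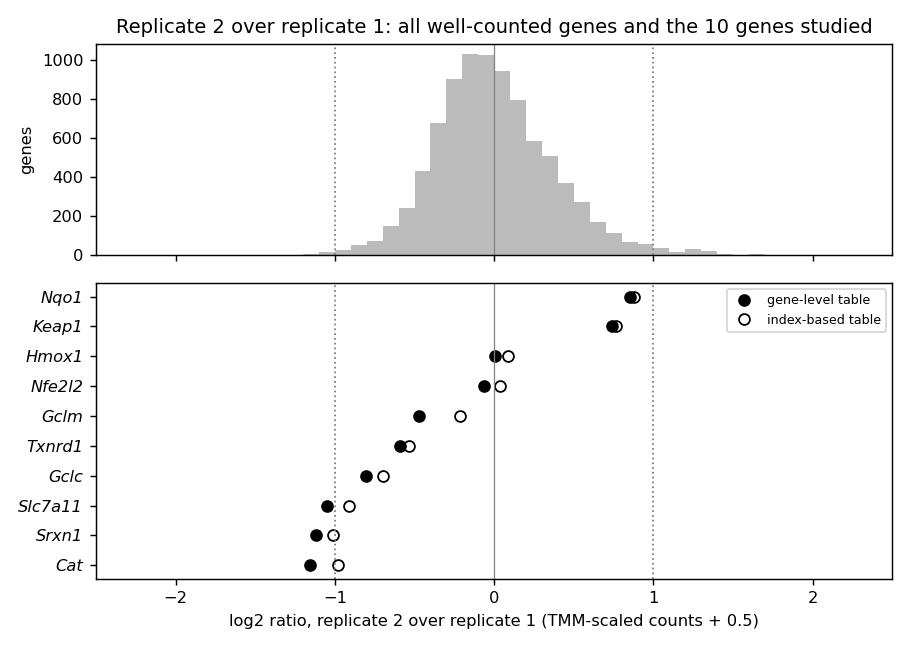
Upper panel, number of genes in bins of the log2 ratio of replicate 2 over replicate 1, for genes that reached 100 counts in each library; lower panel, the same ratio for each of the 10 genes in the gene-level table (filled) and the index-based table (open), with dotted lines at 2-fold. In the gene-level table Slc7a11, Srxn1 and Cat lie beyond the left dotted line, and in the index-based table only Srxn1 does.

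Nfe2l2 (ENSMUSG00000015839.6, chr2:75675513-75704641 in mm10, minus strand) had 8073 counts in replicate 1 and 8097 in replicate 2. Its level was 132 and 129.9 TPM, 131 ± 1.74 TPM (SD, n = 2), at percentile 98.1 of protein-coding genes. The libraries were close to each other, with a log2 ratio of -0.06 and an adjusted p of 0.0198 in the exact binomial test, and the ratio was 0.04 in the index-based table. Keap1 (ENSMUSG00000003308.15, chr9:21229730-21239361, minus strand), the cysteine-rich adaptor that senses electrophiles, had 648 and 1132 counts. Its level was 7.83 and 11.6 TPM, 9.71 ± 2.66 TPM (SD, n = 2), at percentile 72.1. Keap1 was higher in replicate 2, by 1.67-fold, which is short of the 2-fold minimum, with an adjusted p of 7.21e-25 in the exact binomial test and of 0.834 at a dispersion of 0.04. An antisense gene that overlaps the 3′ part of Keap1, Gm16754, had 24 and 46 counts and a log2 ratio of 0.86. The labels and headers do not say whether strand was used in counting, so reads of these overlapping genes may not be separated. Within each library Nfe2l2 RNA exceeded Keap1 RNA per length by 16.7-fold in replicate 1 and 11.1-fold in replicate 2.

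Nfe2l2 has 2 annotated transcripts, and both were abundant. Nfe2l2-201, the protein-coding form with 5 exons, was at 78.5 and 71.7 TPM in replicates 1 and 2. Nfe2l2-202, annotated as a processed transcript without a coding sequence, was at 53.8 and 58.2 TPM. The noncoding form thus held 40.7% and 44.8% of the TPM of the gene, or 43.6% and 47.2% in the index-based table. By counts, which favour the longer transcript, its share was 27.2% (95% exact binomial interval 26.2% to 28.2%, counting error only) and 30.9% (29.9% to 31.9%). The intervals of the libraries did not overlap, but they leave out the error of dividing reads between the transcripts. In the index-based table the count shares were 29.9% and 33.1%, each above the interval of the same library. Nfe2l2-202 joins the end of exon 1 to an exon of 1321 bases that lies inside intron 1, an intron of 24934 bases, and it lacks exons 2 to 5. Counts of an exon inside an intron can also include reads of unspliced RNA, which the tables used here do not separate. The sequences below show where the transcripts part, from GENCODE M21 on the minus strand of mm10, 5′ to 3′. Lower case marks the last 30 bases of exon 1, which both share and which end at chr2:75704364, and capitals mark the next 30 bases of each transcript.
Nfe2l2-201, exon 1 to exon 2: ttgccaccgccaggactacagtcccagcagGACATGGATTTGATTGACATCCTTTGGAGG
Nfe2l2-202, exon 1 to the exon in intron 1: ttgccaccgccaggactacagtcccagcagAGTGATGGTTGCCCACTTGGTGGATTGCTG

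Keap1 was spread over 6 annotated transcripts, all with counts. Keap1-205, a protein-coding form, led with 2.52 and 5.18 TPM, and Keap1-201 followed with 2.29 and 3.05 TPM. Most of the higher level in replicate 2 was therefore assigned to Keap1-205 in the alignment-based table. In the index-based table Keap1-205 had 331 and 517 estimated counts. Only 1 of its 3151 bases lies outside other coding exons of Keap1, so the split among these forms is poorly resolved. The 317-base Keap1-203, a processed transcript, held 18.5% and 5.69% of the TPM of Keap1 in the alignment-based table, on 5 and 3 counts. It led by TPM in the index-based table, with 37.0% and 28.8% on 25.5 and 24.6 estimated counts. A share that rests on so few counts carries little precision.

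**Figure D3:**
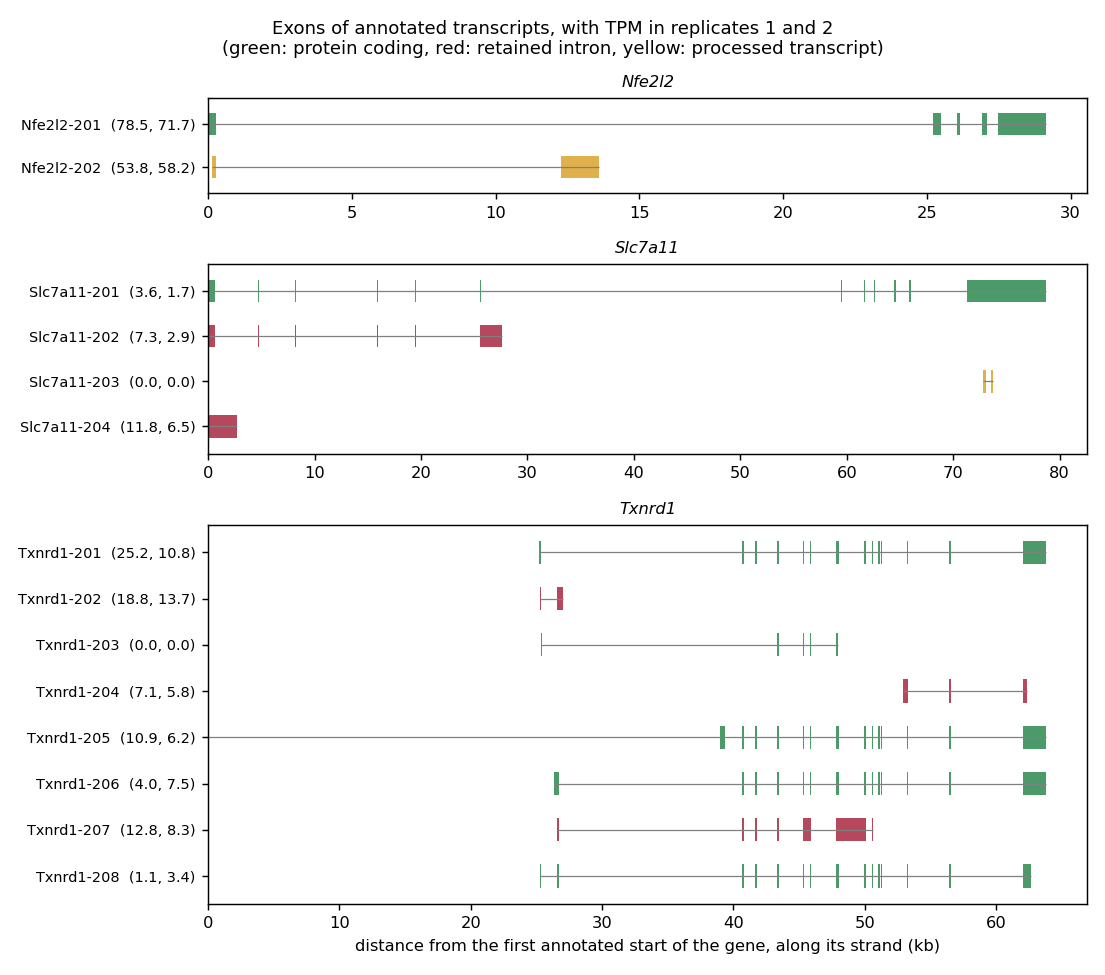
Exons (boxes) of the annotated transcripts of Nfe2l2, Slc7a11 and Txnrd1 by distance from the first annotated start in kb, coloured by annotated type, with TPM in replicates 1 and 2 beside each name (Slc7a11-205, at 0 counts in the alignment-based table, is left out). Nfe2l2-202 (53.8 and 58.2 TPM) ends inside intron 1, and Slc7a11-204 (11.8 and 6.53 TPM) covers only the first 2677 bases of its gene.

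Glutathione synthesis begins with cystine uptake. Slc7a11 (ENSMUSG00000027737.10, chr3:49892526-50443614, minus strand) encodes xCT, the light chain of the cystine and glutamate exchanger, and had 2740 counts in replicate 1 and 1383 in replicate 2. Its level was 22.7 and 11.2 TPM, 16.9 ± 8.12 TPM (SD, n = 2), at percentile 82.9. Replicate 1 was the higher library by 2.07-fold, a log2 ratio of -1.05 with an adjusted p of 5.64e-113 in the exact binomial test. Of genes that reached 100 counts in each library, 0.312% had a lower ratio. The index-based table gave -0.91, short of the 2-fold minimum.

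Most Slc7a11 RNA was assigned to transcripts annotated as reading past an exon into an intron. Their counts can also include reads of unspliced RNA, which the values here do not separate. Slc7a11-204, annotated as a retained intron, is exon 1 with 2056 further bases into intron 1, which is 4069 bases long, and it was at 11.8 and 6.53 TPM. Slc7a11-202, also a retained intron, holds the first 6 exons and 2018 further bases into intron 6, which is 33820 bases long, and it was at 7.30 and 2.92 TPM. The full-length coding Slc7a11-201, with 12 exons, was at 3.57 and 1.72 TPM. The 3 transcripts were all lower in replicate 2, and by TPM the coding form was the least abundant of them in both libraries. By counts, which favour the longer transcript, it was not the lowest. Slc7a11-201 had 1065 and 532 counts, Slc7a11-204 had 962 and 555, and Slc7a11-202 had 713 and 296. Retained introns took 84.2% and 84.6% of Slc7a11 TPM in replicates 1 and 2, and 81.7% and 83.7% in the index-based table. By counts the share was 61.1% (95% exact binomial interval 59.3% to 63.0%) and 61.6% (58.9% to 64.1%), with overlapping intervals. Among 6658 protein-coding genes that reached 100 counts in each library and have at least 1 transcript of another type, the median share in transcripts not annotated as protein coding was 26% of TPM and the 90 percentile was 63%. Slc7a11 was above 97.9% of them by TPM and above 92.6% by counts.

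A same-strand gene of unknown type inside intron 6 of Slc7a11, Gm37498, had 714 and 295 counts. Its log2 ratio was -1.34, with an adjusted p of 1.42e-43 in the exact binomial test. Reads in this intron were therefore also fewer in replicate 2. The sequences below, from GENCODE M21 on the minus strand of mm10, show the coding and the retained-intron form at each of the 2 exon ends. Lower case marks 30 shared coding bases, which end at chr3:50442985 for exon 1 and at chr3:50417988 for exon 6, and capitals mark the next 30 bases. In both retained-intron forms the capitals open with GT, the first bases of nearly all introns.
Slc7a11-201, exon 1 to exon 2: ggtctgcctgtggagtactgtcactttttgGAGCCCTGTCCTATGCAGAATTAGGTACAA
Slc7a11-204, exon 1 into intron 1: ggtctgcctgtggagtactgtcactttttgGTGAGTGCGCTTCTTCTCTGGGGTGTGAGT
Slc7a11-201, exon 6 to exon 7: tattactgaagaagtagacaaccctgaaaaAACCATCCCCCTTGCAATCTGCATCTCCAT
Slc7a11-202, exon 6 into intron 6: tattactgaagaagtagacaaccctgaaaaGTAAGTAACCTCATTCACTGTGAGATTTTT

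By gene totals, the enzyme subunits that use the imported cysteine were lower than Slc7a11. Its coding transcript Slc7a11-201 alone, at 3.57 and 1.72 TPM, was below the Gclm total and above the Gclc total in both libraries. The Gclm total includes the retained intron Gclm-205, at 1.38 and 0.28 TPM, so this is no comparison of coding transcripts alone. In the index-based table Slc7a11-201 was at 1.96 and 0.438 TPM, against Gclc totals of 1.83 and 0.769 TPM. Index-based TPM was lower in replicate 2 also for genes with close scaled counts, such as Nfe2l2, so these values compare genes within a library only. Gclc (ENSMUSG00000032350.9, chr9:77754535-77794485, plus strand), the catalytic subunit of glutamate-cysteine ligase, had 241 counts in replicate 1 and 144 in replicate 2, or 2.27 and 1.30 TPM. Its mean was 1.79 ± 0.686 TPM (SD, n = 2), at percentile 35.5. Gclm (ENSMUSG00000028124.15, chr3:122245557-122270732, plus strand), the modifier subunit of the same enzyme, had 186 and 140 counts, or 4.31 and 2.55 TPM, with a mean of 3.43 ± 1.24 TPM (SD, n = 2) at percentile 48.9. Both had the higher value in replicate 1. The log2 ratio was -0.81 for Gclc and -0.47 for Gclm, with adjusted p-values of 4.96e-07 and 0.0106 in the exact binomial test, and neither reached 2-fold. By gene totals on the log2(TPM + 0.1) scale, Gclc was below Gclm by nearly the same amount in both libraries. The Gclc minus Gclm difference was -0.90 in replicate 1 and -0.92 in replicate 2. That difference was smaller in the index-based table, at -0.66 and -0.11. Slc7a11 gene totals exceeded Gclc by 9.60-fold and 8.05-fold on the same scale. The order of Gclc and Gclm was reversed between their longest coding transcripts in the alignment-based table. There Gclm-201, of 5589 bases, was at 0.64 and 0.46 TPM in replicates 1 and 2, and Gclc-201 at 2.27 and 1.30 TPM. Gclm-201 nevertheless held most Gclm counts, with 113.15 and 84.01 estimated counts. The higher Gclm total in TPM thus rested on shorter annotated transcripts.

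Gclc counts in the alignment-based table were all in the coding Gclc-201. The index-based table instead placed 21% and 53.9% of Gclc TPM in a pair of short processed transcripts. Gclm was divided among 5 of its 7 transcripts. The 495-base retained intron Gclm-205 held 32.0% of Gclm TPM in replicate 1 and 10.9% in replicate 2, on 12.7 and 2.89 estimated counts.

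The thioredoxin branch had the second most abundant of the 10 genes. Txnrd1 (ENSMUSG00000020250.10, chr10:82833951-82897712, plus strand) encodes the cytosolic selenoprotein that reduces thioredoxin with NADPH, and had 6043 counts in replicate 1 and 4191 in replicate 2. Its level was 80.0 and 55.8 TPM, 67.9 ± 17.1 TPM (SD, n = 2), at percentile 96.1. Replicate 1 was higher by 1.51-fold, a log2 ratio of -0.59 with an adjusted p of 5.1e-93 in the exact binomial test, short of the 2-fold minimum. Srxn1 (ENSMUSG00000032802.8, chr2:152105516-152111376, plus strand) encodes sulfiredoxin, which restores peroxiredoxins whose cysteine is over-oxidised. It had 1489 and 717 counts and a level of 17.6 and 8.0 TPM, 12.8 ± 6.80 TPM (SD, n = 2), at percentile 77.8. Srxn1 was 2.17-fold higher in replicate 1, with a log2 ratio of -1.12 and an adjusted p of 4.67e-68 in the exact binomial test, and it passed in the index-based table as well, at -1.01. The difference of Txnrd1 minus Srxn1 on the log2(TPM + 0.1) scale was 2.18 in replicate 1 and 2.79 in replicate 2.

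Txnrd1 RNA was divided among 7 of 8 annotated transcripts, with 4 kinds of first exon. The coding Txnrd1-201 was at 25.2 TPM in replicate 1, where it led, and at 10.8 TPM in replicate 2. The retained intron Txnrd1-202 was at 18.8 and 13.7 TPM and led by TPM in replicate 2. It is only 483 bases long and had 166 and 138 estimated counts, against 2601 and 1155 for Txnrd1-201. Txnrd1-207, also a retained intron, was at 12.8 and 8.33 TPM. Txnrd1-206 and Txnrd1-208, both coding, went the other way, from 4.0 to 7.52 TPM and from 1.11 to 3.39 TPM. In the alignment-based table the forms of Txnrd1 thus did not all share the direction of the gene. In the index-based table Txnrd1-208 was again higher in replicate 2, with 161 and 511 estimated counts. Txnrd1-206 had 1421 and 1267 there, with library totals of 34650106 and 30887071 counts. Txnrd1-208 has 0 bases outside other coding exons of the gene, and Txnrd1-206 has 223 of 3531, so their levels rest on how shared reads were divided. Retained introns held 48.5% and 50.0% of Txnrd1 TPM and 28.1% and 28.8% of its counts, a TPM share above that of 79.4% of the 6658 reference genes. As for Slc7a11, these shares can include reads of unspliced RNA. Grouped by first exon, the 4 transcripts that share the first exon of Txnrd1-201 held 56.5% of TPM in replicate 1 and 50.0% in replicate 2. The 2 transcripts that start just downstream held 21% and 28.4%, Txnrd1-205 with its far upstream first exon held 13.6% and 11.1%, and Txnrd1-204, which starts inside the gene, held 8.91% and 10.5%. The index-based table placed 28.3% and 17.2% of TPM in Txnrd1-205, and only 4.15% and 3.96% in Txnrd1-201. The division among these overlapping forms therefore depended on the table. Eid3, a same-strand gene within Txnrd1, had 1005 and 772 counts, a log2 ratio of -0.45.

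Hmox1 (ENSMUSG00000005413.8, chr8:75093621-75100589, plus strand) encodes heme oxygenase 1, which opens heme to biliverdin, iron and carbon monoxide. It had 1040 counts in replicate 1 and 1095 in replicate 2, or 23.2 and 23.4 TPM. Its mean was 23.3 ± 0.099 TPM (SD, n = 2), at percentile 87.2, and the libraries did not differ beyond counting error. The log2 ratio was 0.01, with an adjusted p of 0.951 in the exact binomial test. Hmox1 RNA was nearly all in the coding Hmox1-201, with 100% and 99.1% of TPM, and its retained-intron form Hmox1-202 had 0 and 4.11 estimated counts.

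Nqo1 (ENSMUSG00000003849.8, chr8:107388225-107403206, minus strand), the quinone reductase widely used as a readout of NRF2, had 4 counts in replicate 1 and 8 in replicate 2. The 95% exact Poisson intervals of these counts were 1.09 to 10.2 and 3.45 to 15.8, for counting error only. Its level was 0.09 and 0.17 TPM, 0.13 ± 0.0566 TPM (SD, n = 2), at percentile 4.96. The ratio of replicate 2 over replicate 1 was 1.91 with an interval of 0.512 to 8.67, so at this depth no difference between the libraries was detectable. In the same libraries Hmox1 exceeded Nqo1 on the log2(TPM + 0.1) scale by 6.94 in replicate 1 and 6.44 in replicate 2, a mean of 6.69 that becomes 4.43 with a pseudocount of 1. These classical targets of NRF2 thus took positions 3 and 10 in the order of levels.

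Cat (ENSMUSG00000027187.10, chr2:103453849-103485160, minus strand) encodes catalase, the peroxisomal enzyme that breaks down hydrogen peroxide. It had 1298 counts in replicate 1 and 608 in replicate 2, a level of 16.3 and 7.34 TPM, 11.8 ± 6.36 TPM (SD, n = 2), at percentile 76.1. Cat had the largest ratio of the 10 genes, 2.23-fold higher in replicate 1, with a log2 ratio of -1.16 and an adjusted p of 6.94e-63 in the exact binomial test. Of genes that reached 100 counts in each library, 0.220% had a lower ratio. The index-based table gave -0.98, just short of 2-fold. Catalase is also abundant in red cells, and the summed erythroid marker level given above was 1.51 TPM in replicate 1 and 1.16 TPM in replicate 2. Hbb-bt and Hba-a1 had 0 counts in both, Hbb-bs had 2 and 2, Hba-a2 had 7 and 0, and Alas2 had 9 and 19. A part of red cells in the Cat difference was not tested. All Cat counts were in the coding Cat-201.

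**Figure D4:**
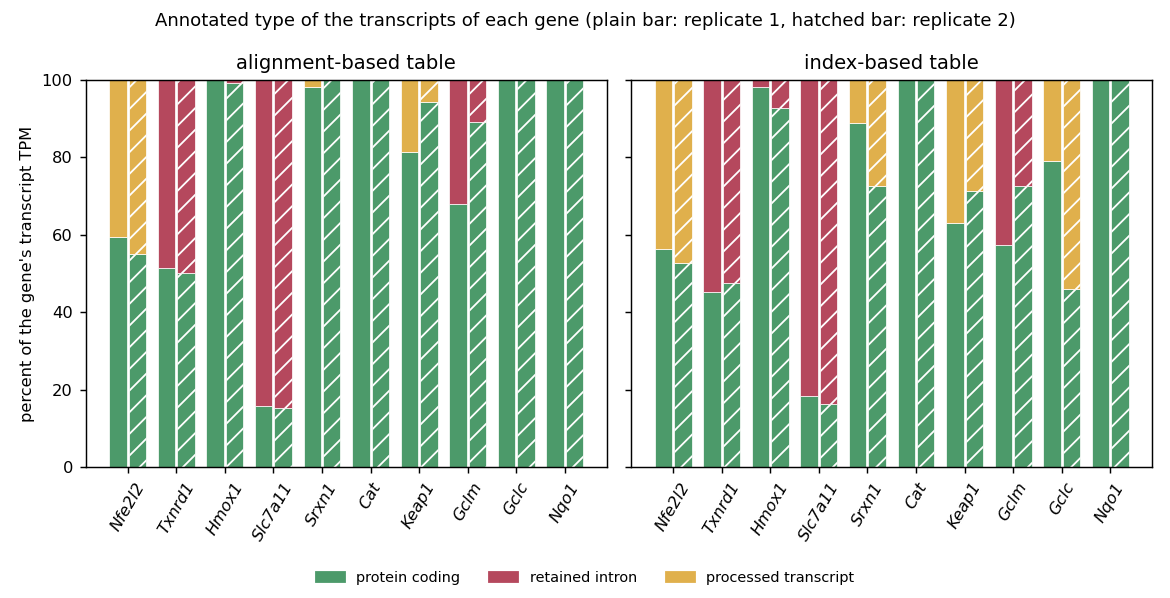
Percent of the TPM of each gene in protein-coding, retained-intron and processed transcripts, for the alignment-based table (left) and the index-based table (right), with a plain bar for replicate 1 and a hatched bar for replicate 2. Slc7a11 has the largest retained-intron share in both tables (84.2% and 84.6% in the alignment-based table), while Cat and Nqo1 are at 100% protein coding in both.

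Set side by side by annotated transcript type, the 10 genes differed in their shares, and some of these shares depended on the table. In the alignment-based table, Slc7a11, Txnrd1 and Nfe2l2 had over 40% of TPM in transcripts not annotated as protein coding in both libraries. The mean share of Nfe2l2 was above that of 72.2% of the 6658 reference genes. Hmox1, Srxn1, Gclc, Cat and Nqo1 had at most 1.87% in either library. Cat-201 and Nqo1-201 could not be compared with another type, since Cat and Nqo1 have no annotated transcript of another type. The 3 genes that were more than 2-fold higher in replicate 1 differed in that table. Srxn1 had nearly only coding transcripts, Slc7a11 mostly retained introns, and Cat had no other type to be counted in. The index-based table gave larger noncoding shares for Keap1, Srxn1 and Gclc, in replicate 2 27.4% for Srxn1 and 53.9% for Gclc. In that table they came from transcripts of at most 810 bases with few counts.

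Promoter windows of 250 bases before to 50 bases after a start were found in the RefSeq table (GRCm38.p6) for 8 of the 10 genes, 10 windows in all, with none for Hmox1 and Gclc. The core letters of the antioxidant response element, TGACNNNGC, were searched on both strands. They occurred in 4 windows, those of Nfe2l2, Gclm, Srxn1 and the Txnrd1 start that lies within the first exon of Txnrd1-201, and in 4071 of all 32851 windows, or 12.4%. The match began 240 bases before the start in Nfe2l2, 134 before it in Gclm, 92 before it in Txnrd1, and 29 bases after it in Srxn1. The related letters TGAGNNNGC, added after the data were seen, occurred in Srxn1 at 158 and 45 bases before the start and in Slc7a11 at 97 before it, and in 17.6% of all windows. Of the genes more than 2-fold higher in replicate 1, Srxn1 held both forms, Slc7a11 only the form added afterwards, and Cat neither. Nfe2l2, Gclm and Txnrd1, which did not pass the test between libraries, also held a match. A link between matches and ratios was not tested. A match describes letters in the window and no binding was measured. The stretches below run 5′ to 3′ along the strand of the gene, with the matched letters, on either strand, in capitals. Those of Nfe2l2, Gclm and Txnrd1 match TGACNNNGC, and those of Srxn1 and Slc7a11 match TGAGNNNGC. The TGACNNNGC match of Srxn1, 29 bases after the start, is not printed.
Nfe2l2, chr2:75704875-75704913: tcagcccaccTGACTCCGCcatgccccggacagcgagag
Gclm, chr3:122245403-122245451: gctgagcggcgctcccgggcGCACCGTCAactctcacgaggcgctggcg
Txnrd1, chr10:82859094-82859142: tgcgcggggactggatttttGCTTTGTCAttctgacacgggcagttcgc
Srxn1, chr2:152105459-152105507: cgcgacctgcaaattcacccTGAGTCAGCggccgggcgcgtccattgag
Srxn1, chr2:152105346-152105394: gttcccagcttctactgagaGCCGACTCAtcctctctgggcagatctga
Slc7a11, chr3:50443682-50443730: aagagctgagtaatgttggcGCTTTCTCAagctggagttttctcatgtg

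The wider pathway was well represented in this nuclear RNA, and none of it passed the test between libraries. Of 60 other genes in 3 lists, 57 were tested and 0 passed, beside 6.65% of all genes tested. When only genes that reached 100 counts in each library were tested, 2.08% of them passed. A contrast between these lists and the 10 genes was not tested. Of the 57 genes, 33 had a ratio below 0 and 24 above it, and their median log2 ratio was -0.07. An adjusted p under 0.05 without the 2-fold minimum was reached by 30 of the 57 in the exact binomial test, beside 38.8% of all genes tested and 55.2% of genes that reached 100 counts in each library. With library totals in place of TMM scaling, 1 of the 57 passed, Me1, the cytosolic malic enzyme, at a log2 ratio of -1.01. Of the 60 genes, 43 lay above the median protein-coding level and 10 above the 90 percentile.

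Among 13 regulators, 11 were above the median protein-coding level, and the log2 ratios had a median of -0.09. Sqstm1, the autophagy receptor p62 that can displace NRF2 from KEAP1, led with 477 and 460.3 TPM in replicates 1 and 2. Nfe2l1, the related factor NRF1, was at 73.8 and 100.1 TPM, and Mafg, a small MAF partner of NRF2, at 25.3 and 25.4 TPM. Mafk, another small MAF, had the largest ratio of the well-counted regulators, with 6.97 and 10.9 TPM and a log2 ratio of 0.57. Of these, Sqstm1 was above Nfe2l2 itself in both libraries.

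Among 27 other known targets, 25 were tested and their median log2 ratio was -0.17. The ferritin chains that store iron were far above every one of the 10 genes, with Fth1 at 1498 and 1923 TPM and Ftl1 at 804 and 984 TPM, and near-identical pseudogene copies make both values uncertain. Prdx1, a peroxiredoxin, was at 72.5 and 63.2 TPM. Taldo1, transaldolase of the pentose phosphate pathway, had the largest ratio of the well-counted targets, with 7.53 and 10.3 TPM and a log2 ratio of 0.63. Gsta4 and Gpx2 had 0 counts in both libraries.

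Among 20 other antioxidant enzymes and carriers, 19 were tested and their median log2 ratio was 0.00. Sod2, the mitochondrial superoxide dismutase, was at 172 and 236 TPM, and Prdx5, another peroxiredoxin, at 86.3 and 112 TPM. Slc3a2, the heavy chain that pairs with xCT in the cystine exchanger, was at 117 and 150.8 TPM, with a log2 ratio of 0.45. Its light-chain partner Slc7a11 had a ratio of the opposite sign, -1.05, and the difference between these ratios was not tested. Gpx3, a secreted glutathione peroxidase, had the largest ratio of the well-counted genes in this list, with 6.07 and 9.29 TPM and a log2 ratio of 0.62. Sod3 had 1 count in all.

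**Figure D5:**
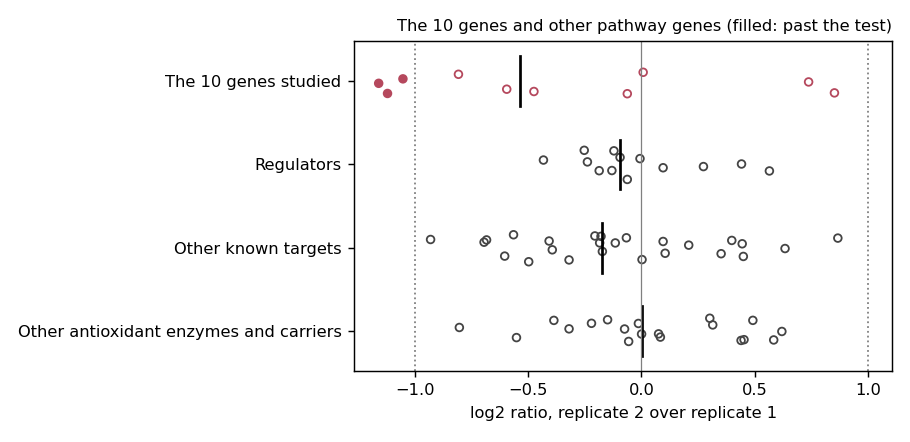
Log2 ratio of replicate 2 over replicate 1 for the 10 genes and for 3 lists of other pathway genes, 1 point per gene tested, with a bar at each median, dotted lines at 2-fold and filled points for genes past the test. Only Slc7a11, Srxn1 and Cat are filled, and the medians are -0.53, -0.09, -0.17 and 0.00 from top to bottom.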

How the data were processed

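Ribosomal-RNA-depleted RNA of 1 fraction was measured in 2 libraries of 1 group. Per the file headers, the authors derived a gene-level table and an alignment-based transcript table from transcriptome alignments, and an index-based transcript table from reads and a transcript index, on mm10 with GENCODE M21. Aligner and quantifier are not named in these labels or headers. The expected counts are estimated read counts that the authors deposited, in which a read shared by several transcripts is divided among them. The deposited TPM was used as given, which is divided by length and scaled over all entries, small RNAs included. Rows that name no gene (0.144% and 0.081% of counts) were left out.

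Expected counts were rounded, given TMM factors (with edgeR 4.0.16 in R 4.3.3) and compared gene by gene with a two-sided exact binomial test (scipy 1.17.1), Benjamini-Hochberg adjusted over the 16140 genes with a summed count of at least 10. For ratios, 0.5 was added to both counts. No residual degrees of freedom exist with 1 library against 1, so p-values cover counting error only. The scripts were tested on simulated data. Depth was 20612078 and 22772081 counts. All 10 genes are named, and from each list the 3 highest, the largest ratio among genes that reached 100 counts in each library, and any past the test. The genes and lists were chosen with earlier results of these data known. Alternatives covered scaling, count minimum, table, dispersion, pseudocount and leaving out a library. The motif TGAGNNNGC and the first-exon shares in the index-based table were added after the data were seen. The value of 1 marker gene is not reported here.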

Additional observations from a re-analysis of the deposited data

How the results depend on the processing

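The number of all genes past the test, 1073, became 180 among genes that reached 100 counts in each library, 2312 in the index-based table, 6255 without a minimum ratio and 196 in an edgeR exact test at a dispersion of 0.04. The number among the 10 genes, 3, became 1, 8 and 0 under the last 3 of these settings, in that order, and stayed at 3 under library totals, both other count minimums and a dispersion of 0.01. Other pathway genes went from 0 to 1 with library totals. Of the single ratios, Nfe2l2 changed sign in the index-based table, to 0.039, and Hmox1 with library totals, to -0.069, and the other directions held under all 5 alternatives run. Slc7a11 and Cat no longer reached 2-fold in the index-based table, at -0.91 and -0.98. The antioxidant response element core was found in 4 genes, and its variant with G at the fourth base, a choice made after the data were seen, in 2. Above the median of protein-coding genes were 7 genes without replicate 1 and 8 without replicate 2, and 2 were above the 90 percentile in either case. Levels scaled again over protein-coding genes alone were higher for all 10, and mean levels in the index-based table were lower for all 10, at 57.6 TPM for Nfe2l2, 9.49 for Hmox1 and 5.38 for Cat. Index-based TPM was 78.7 and 36.4 in replicates 1 and 2 for Nfe2l2, and 12.8 and 6.18 for Hmox1. Their index-based log2 ratios by scaled counts were only 0.04 and 0.09, so index-based TPM is not read here as a difference between libraries. With a pseudocount of 1 the mean difference of Hmox1 minus Nqo1 was 4.43 and that of Cat minus Nqo1 3.41. No paired analysis was possible because the libraries form 1 group. Depth limits Nqo1, Gclm and Gclc most.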
